A study of Rattus norvegicus with 64 samples.

Results

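Bone morphogenetic proteins (Bmps) are secreted ligands of the TGF-beta superfamily that bind receptor serine/threonine kinases and act through Smad transcription factors. Antagonists such as gremlin 1 (Grem1), noggin (Nog) and chordin-like 1 (Chrdl1) bind the ligands outside the cell and keep them from their receptors. The Id genes, which encode inhibitors of basic helix-loop-helix transcription factors, are among the best known direct targets of Bmp signaling. In the bladder, Bmp ligands are known as signals between the urothelium and the stroma beneath it, and Bmp2 and Bmp4 are regarded as targets of Hedgehog signaling. The genes described here were 4 ligands (Bmp2, Bmp4, Bmp6 and Bmp7), the 3 antagonists named above and 3 Id genes (Id1, Id2 and Id3). They were taken from the array by the RefSeq accession of each probe. All 10 of 10 were on the array, on 11 of 30367 gene probes, against 15709 genes named in all. Grem1 had 2 probes and the brighter probe was used.

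RNA came from the reconstructed wall of the urinary bladder of syngeneic male Wistar rats that had undergone hemicystectomy. The defect was closed with bladder acellular matrix (BAM), a decellularized bladder wall, or with BAM seeded with adipose tissue-derived stromal cells of the third passage (BAM+ASCs, ADSCs in the labels). The reconstructed walls were taken 7, 30, 90 and 180 days after surgery, which gave 8 groups of 8 arrays, 64 in all. The seeded cells came from retroperitoneal fat of male Wistar rats, 10 weeks old, they were not tracked in these data, and the age of the operated rats was not given in the sources used here.

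Levels are log2 array signals relative to the 75th percentile of the same array, so that 0 is the signal of that percentile and a difference of 1 is 2-fold. Differences are given as BAM+ASCs minus BAM, or later minus earlier day, with the standard error of the limma fit over all 64 arrays. A gene was called when its Benjamini-Hochberg adjusted p over all 30367 probes was below 0.01 and its fold change above 1.5. Each group was hybridised on a slide of its own, so graft and slide cannot be told apart. The files gave 1 scan date for the 4 early groups (7 and 30 days) and another for the 4 late groups, with 73.3 to 95.6% of spots well above background on the early arrays and 35.5 to 64.6% on the late arrays. In RNA of a whole tissue wall, a change in the number of cells of a type and a change in RNA per cell cannot be told apart. The urothelial level of each array was taken as its urothelial score, the mean level of 13 urothelial genes such as the uroplakins, and 9 of these 13 were higher in BAM+ASCs than in BAM at 7 days. All 10 smooth muscle markers were well above background on every array, and so were 10 of the 13 urothelial markers, the others being Krt20, Foxa1 and Upk2. At 90 days, replicate 5 of BAM had a urothelial score of 0.14 against 1.68 to 3.08 in the other 7 arrays of its group, and replicate 3 of BAM+ASCs had a score of 3.95 against 2.62 to 3.11. Called graft differences of members that rest on these arrays, and the urothelial score difference of 90 days, are given with and without them. Differences of 90 days that were not called, such as those of Bmp4 and Id1, include these arrays unless stated.

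Bmp2 and Bmp7, ligands made by many epithelia, were higher in bladders reconstructed with BAM+ASCs at 7 days, and Chrdl1 was higher with them. No member was called lower at that day. Of the 10 members, 3 were called at 7 days, where 7.73% of all probes were called and 2.11% were called higher. The median difference of the 10 members was 0.33 and that of all probes was -0.16.

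Bmp7, a ligand with a prominent part in epithelial organs such as the kidney, lay between -3.22 and 0.24 in BAM at 7 days, with a median of -1.08, and between -0.39 and 0.52 in BAM+ASCs, with a median of 0.26. In 5 of 8 BAM+ASCs arrays Bmp7 was above every BAM array, and the spread was wide in BAM (SD 1.37, n = 8) and narrow in BAM+ASCs (SD 0.29, n = 8). The difference was 1.40 ± 0.31 on the log2 scale, or 2.64-fold (limma, adjusted p = 0.000617). The call was lost when the 2 groups were fitted alone (adjusted p = 0.0464), and it was kept without any 1 of the 16 arrays, at 1.11 to 1.60. By 30 days the level was -0.94 to 0.50 in BAM and 0.37 to 1.48 in BAM+ASCs, a difference of 0.94 ± 0.31 that was not called (limma, adjusted p = 0.0427). At 90 and 180 days the differences were 0.62 ± 0.31 and -0.23 ± 0.31 on the log2 scale, both not called.

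Bmp2 lay between -2.68 and -0.84 in BAM at 7 days, with a median of -1.69, and between -1.41 and -0.24 in BAM+ASCs, with a median of -0.75. The groups overlapped, and 5 of 8 BAM+ASCs arrays were above every BAM array. The difference was 0.94 ± 0.25 (limma, adjusted p = 0.00408), or 1.92-fold. This call was near the threshold: it was lost without BAM+ASCs replicate 4 (0.87) or 6 (0.87) and without BAM replicate 6 (0.88) or 7 (0.80), with the 2 groups fitted alone (adjusted p = 0.0123), after normexp background correction (0.78) and after scaling to detected spots only (0.88). Bmp2 was also called at 90 days, with levels of -1.90 to 1.11 in BAM (median 0.32) and 0.48 to 2.12 in BAM+ASCs (median 0.90) and a difference of 0.87 ± 0.25. That difference rested on the arrays named above. Without BAM replicate 5 it was 0.58 (limma, adjusted p = 0.0289), without BAM+ASCs replicate 3 it was 0.71 (limma, adjusted p = 0.0229), and without both it was 0.42 ± 0.20 (limma, adjusted p = 0.0955). It was also lost without BAM+ASCs replicate 8 (0.84, adjusted p = 0.0129). At 180 days the difference was -0.15 with a 95% interval of -0.64 to 0.35. The change from the 90-day to the 180-day graft difference was -1.01 ± 0.35 (limma, adjusted p = 0.0297) and was not called.

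**Figure D1:**
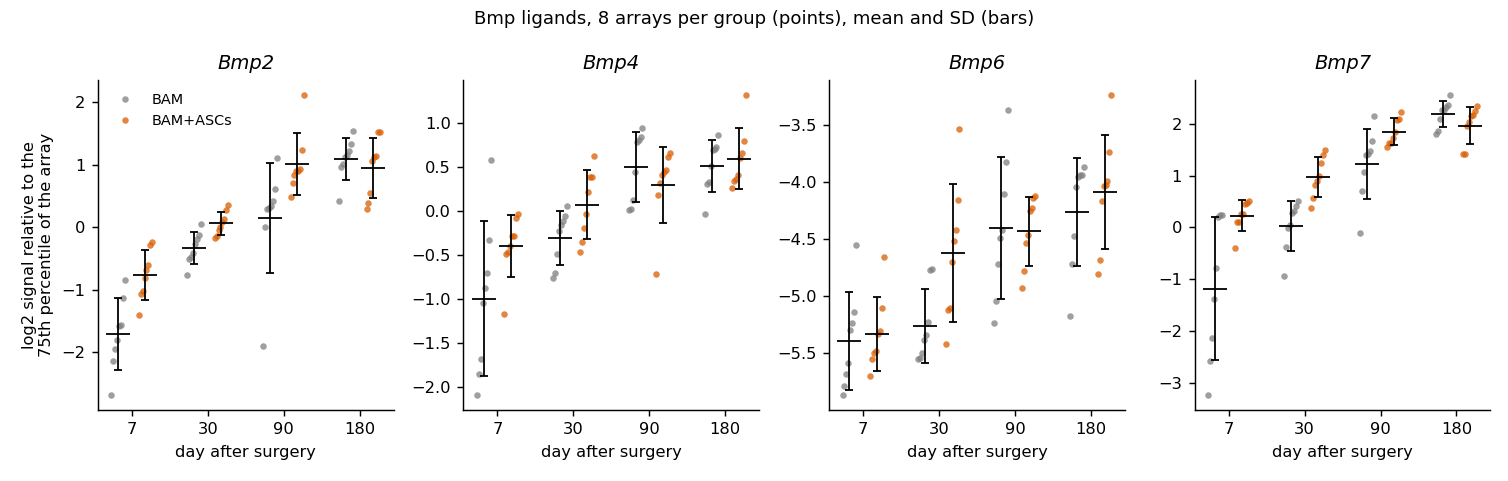
Levels of the 4 Bmp ligands by day after surgery (x axis) as log2 signal relative to the 75th percentile of the array (y axis, a separate range for each gene). Points are single arrays, 8 per group, BAM in grey and BAM+ASCs in orange, black bars give the mean ± SD, and at 7 days the grey points reach further down, to -2.68 for Bmp2 and -3.22 for Bmp7.

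Bmp4, a ligand found in the stroma of many organs, did not differ between the grafts by the test. At 7 days it lay between -2.09 and 0.58 in BAM and between -1.17 and -0.03 in BAM+ASCs, with medians of -0.96 and -0.34. All BAM+ASCs arrays lay within the range of BAM, and the difference was 0.60 ± 0.23 with a 95% interval of 0.14 to 1.06 (limma, adjusted p = 0.0600). Without BAM replicate 2, the array with the highest Bmp4 of its group, the difference was 0.82 and was called (limma, adjusted p = 0.00315). At 30, 90 and 180 days the differences were 0.38, -0.20 and 0.081, with 95% intervals of -0.080 to 0.84, -0.66 to 0.26 and -0.38 to 0.54. Bmp6, a ligand with a known part in iron homeostasis, was dim. It was well above background on 6 to 8 of 8 arrays in each group of 7 and 30 days and on 0 to 2 of 8 arrays in each group of 90 and 180 days. Its early differences were 0.065 ± 0.23 at 7 days and 0.64 ± 0.23 at 30 days (limma, adjusted p = 0.0683), and the late ones rest on levels near background.

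Over the 8 groups Bmp2 was lowest in BAM at 7 days (-1.71 ± 0.58, SD, n = 8) and highest in BAM at 180 days (1.09 ± 0.33, SD, n = 8), and Bmp7 was lowest and highest in the same groups (-1.17 ± 1.37 and 2.18 ± 0.26, SD, n = 8). In the order of the 8 group means of Bmp2, only the lowest neighbouring pair, BAM+ASCs and BAM at 7 days, was told apart by the test. For Bmp7 it was the pair of BAM at 30 days and BAM at 7 days, and for Bmp4 there was no such pair. In BAM, 5 of the 10 members rose from 7 to 30 days, against 8.65% of all probes called and 4.44% called higher. These were Bmp2 (1.37 ± 0.25), Bmp7 (1.20 ± 0.31), Chrdl1 (1.49 ± 0.33), Id1 (1.02 ± 0.22) and Id3 (1.35 ± 0.18). The Bmp7 call was lost without BAM replicate 1, 6 or 7 of the 7-day group, at 1.06, 1.00 and 0.91, and Bmp4 was called without BAM replicate 2 of 7 days, at 0.92. In BAM+ASCs, 2 of 10 rose over the same days, Id1 (1.01 ± 0.22) and Id3 (1.38 ± 0.18), against 8.06% of all probes called and 6.67% called higher. Bmp2 differed by 0.83 ± 0.25 there, which missed the threshold narrowly (limma, adjusted p = 0.0103). It was called without BAM+ASCs replicate 4 or 6 of 7 days or replicate 4 of 30 days (0.90, 0.90 and 0.86), and Bmp6 was called without replicate 3 of 30 days (0.82). The graft differences at 7 and 30 days differed from each other by -0.54 ± 0.35 for Bmp2 and -0.46 ± 0.43 for Bmp7, neither called, so the graft differences at 7 and 30 days were not shown to differ.

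Between 30 and 90 days the comparison crossed both the slide and the scan date, and 44.7% of all probes were called in BAM and 28.1% in BAM+ASCs. In BAM the median difference of all probes was 0.30, and 5 of 10 members were called higher, against 35.2% of all probes called higher: Bmp4 (0.80), Bmp6 (0.86), Bmp7 (1.19), Chrdl1 (1.09) and Id3 (0.74). With arrays scaled to detected spots only, the median of all probes was -0.42, none of these 5 was called, and Grem1 (-1.82) and Id2 (-0.80) were called lower. Bmp6 was not well above background on any BAM array of 90 days, so it has no measured fold there. In BAM+ASCs, Bmp2 (0.95) and Chrdl1 (1.94) were called higher from 30 to 90 days, and Grem1, Nog and Id3 lower, against 17.8% of all probes called higher and 10.3% called lower. The Bmp2 call was lost under scaling to detected spots (0.36, adjusted p = 0.213), where the median of all probes was -0.48. From 90 to 180 days, 2 of 10 members were called in BAM, Bmp2 higher (0.95 ± 0.25) and Id3 lower, where 9.39% of all probes were called, 5.21% higher and 4.17% lower. The Bmp2 rise was 0.65 without BAM replicate 5 of 90 days and then lost its call (limma, adjusted p = 0.0152). Without that array Bmp2 was called higher from 30 to 90 days in BAM (0.78), and without BAM replicate 7 of 90 days Bmp7 was called higher from 90 to 180 days (1.09). In BAM+ASCs, only Id3 was called over these days, against 4.14% of all probes called and 3.52% called higher.

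Bmp2 was followed array by array against the urothelial score. Within each of the 8 groups of 8 arrays the correlation was positive, with a median Pearson r of 0.78 and a range of 0.47 to 0.94, and 3 of the 8 groups passed an adjusted p of 0.05 in a two-sided exact permutation test (8 tests). In BAM+ASCs at 7 days Pearson r was 0.89 (exact permutation adjusted p = 0.00377) and Spearman rho was 0.95 (exact permutation adjusted p = 0.00913), and r was 0.86 without the 2 arrays farthest from the median score. In BAM at 7 days r was 0.86 (exact permutation p = 0.00598, adjusted p = 0.0159), rho was 0.81 (exact permutation adjusted p = 0.0871), and r was 0.65 without the 2 farthest arrays. In BAM at 90 days r was 0.94 (exact permutation adjusted p = 0.0159) and rho was 0.67 (exact permutation adjusted p = 0.166). Without the 2 farthest arrays, replicate 5 among them, r there was 0.31, so that relation rests on those arrays. Leaving out 2 arrays in the same way gave r of -0.04 in BAM at 30 days and 0.15 in BAM+ASCs at 90 days, and 0.81 and 0.91 in BAM and BAM+ASCs at 180 days. The Bmp2 level and the score come from the same array and share its RNA and its scaling.

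The urothelial score was higher in BAM+ASCs at 7 and 30 days, and at 90 days the difference rested on the arrays that stood apart. At 7 days it ranged from -2.56 to 1.94 in BAM and from 0.88 to 2.35 in BAM+ASCs, a difference of 1.67 between the means (exact permutation adjusted p = 0.0174, over 28 comparisons of 7 cell type scores at 4 days). At 30 days all 8 BAM+ASCs arrays were above every BAM array, and the difference was 0.86 (exact permutation adjusted p = 0.00435). At 90 days it was 0.78 (exact permutation adjusted p = 0.0490), and without those 2 arrays it was 0.35 (exact permutation p = 0.0524, adjusted p = 0.122 over the 7 scores). At 180 days it was -0.25 (exact permutation adjusted p = 0.369). With the urothelial score in the fit as a covariate, the Bmp2 difference was 0.050 ± 0.19 at 7 days and 0.45 ± 0.17 at 90 days, beside -0.061 ± 0.17 at 30 and -0.011 ± 0.16 at 180 days, and none of these was called. Without the 2 arrays that stood apart, the difference at 90 days in that fit was 0.28 ± 0.15 (limma, adjusted p = 0.144). The Bmp7 difference was 0.16 ± 0.20 at 7 days and 0.30 ± 0.18 at 30 days in that fit. The rise of Bmp7 in BAM from 7 to 30 days was -0.037 ± 0.20 there, that of Bmp2 0.48 ± 0.19 and that of Id1 0.38 ± 0.21, again without a call. Chrdl1 kept its difference at 7 days, at 1.56 ± 0.38 (limma, adjusted p = 0.00632), and Id3 kept its differences at 90 and 180 days. The smooth muscle score differed by 0.36 between the grafts at 7 days (exact permutation adjusted p = 0.541). With that score in place of the urothelial score, Bmp2 (0.89 ± 0.25) and Bmp7 (1.30 ± 0.30) were still called at 7 days. Scores of endothelium (-0.54) and of neutrophils and macrophages (-0.75) were lower in BAM+ASCs at 7 days, both with an exact permutation adjusted p of 0.0174. Of their genes, 2 of 6 (Kdr and Vwf) and 1 of 7 (Csf3r, -1.82) were called lower. S100a8 (-1.44), S100a9 (-1.43), Ptprc (-0.40), Cd68 (-0.30), Csf1r (-0.10) and Itgam (0.22) were not called. The part of these cell types in the Bmp differences was not tested.

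**Figure D2:**
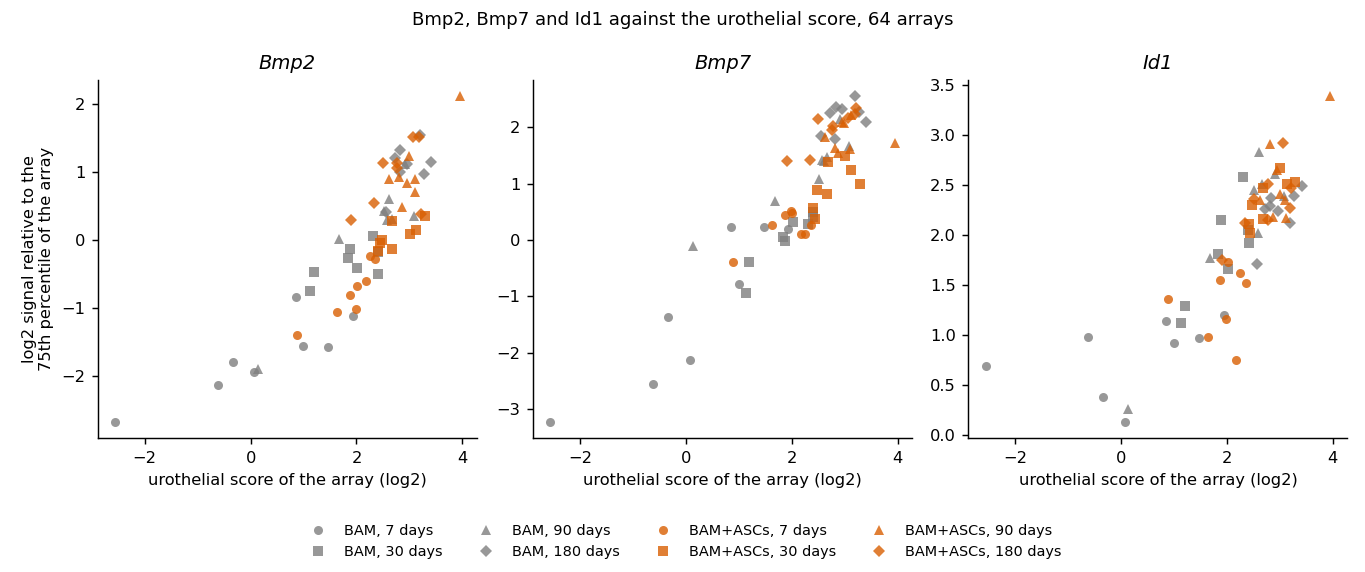
Level of Bmp2, Bmp7 and Id1 (y axis, log2 signal relative to the 75th percentile of the array) against the urothelial score of the same array (x axis, mean log2 level of 13 urothelial genes). Each point is 1 of 64 arrays, grey for BAM and orange for BAM+ASCs, with a marker shape for each day, and the array with the lowest score (-2.56, BAM at 7 days) also had the lowest Bmp2 (-2.68) and Bmp7 (-3.22).

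Among the 10 members, 3 followed the urothelial score and 2 others the smooth muscle score in deviations pooled over the groups. Over the 64 arrays, after subtraction of the group means, r with the urothelial score was 0.85 for Bmp7, 0.76 for Bmp2 and 0.61 for Id1, against a median of -0.08 over 11141 genes detected on at least 32 arrays. Of those genes, 99.1% had a lower r than Bmp7, 98.2% a lower r than Bmp2 and 96.2% a lower r than Id1. Each unit of the score went with 0.74 ± 0.06 of Bmp7, 0.53 ± 0.06 of Bmp2 and 0.38 ± 0.07 of Id1 on the log2 scale. The score spread most in BAM at 7 days (SD 1.43) and BAM at 90 days (SD 0.96), against 0.29 to 0.50 elsewhere. These pooled r and slopes therefore rest most on those groups. With the smooth muscle score, r was 0.55 for Chrdl1 and 0.53 for Bmp4, against a median of -0.01 over all genes. The other members of each comparison had r between -0.29 (Id2) and 0.17 (Bmp4) with the urothelial score and between -0.21 (Grem1) and 0.26 (Bmp7) with the smooth muscle score. Single groups departed from this: the r of Bmp7 with the urothelial score was -0.04 in BAM+ASCs at 90 days, and that of Chrdl1 with the smooth muscle score was -0.66 in BAM+ASCs at 7 days. The r of Id1 with the urothelial score was 0.11 in BAM+ASCs at 7 days. Bmp4 had a positive r with the smooth muscle score in only 5 of 8 groups, from -0.52 in BAM+ASCs at 90 days to 0.92.

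The genes whose deviations within groups were most similar were found for each member. For Bmp7 they were Itgb6, an epithelial integrin subunit (r = 0.90), Serpinb5, or maspin, an epithelial serpin (r = 0.90), and Kdf1, a regulator of keratinocyte differentiation (r = 0.89). For Bmp2 they were the transporter Slc22a23 (r = 0.84), Rnf208 (r = 0.83) and Sdc4, or syndecan 4 (r = 0.83). For Id1 they were the interleukin 17 receptor subunit Il17re (r = 0.82), the glucuronosyltransferase Ugt1a6 (r = 0.82) and Vav2 (r = 0.82). Bmp4 was most like Ackr3, an atypical chemokine receptor (r = 0.74), and also like Adh1c (r = 0.69). All these r are over 64 arrays and 11140 other genes and describe arrays that share tissue composition and scaling. Between members, the closest pairs were Bmp2 and Id1 (r = 0.75), Bmp2 and Bmp7 (r = 0.64) and Bmp7 and Id1 (r = 0.50), and Bmp4 and Id1 had r = -0.10.

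The antagonists each took a course of their own. Chrdl1 was higher in BAM+ASCs at 7 days, Grem1 was not called between the grafts at any day, and Nog was too dim at the late days to be followed.

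Chrdl1, a chordin family protein that binds Bmp4 and other ligands, lay between -5.01 and -3.38 in BAM at 7 days, with a median of -4.15, and between -3.67 and -1.90 in BAM+ASCs, with a median of -3.00. In 5 of 8 BAM+ASCs arrays it was above every BAM array, and the difference was 1.32 ± 0.33, or 2.50-fold (limma, adjusted p = 0.00234). The difference was 1.20 without BAM replicate 7, just past the threshold (limma, adjusted p = 0.0102). After normexp background correction it was 0.62 and was not called (limma, adjusted p = 0.0929). At 30 days it was -0.11 with a 95% interval of -0.76 to 0.54, and the change of the difference between the days was -1.44 ± 0.46 (limma, adjusted p = 0.0483), which was not called. Chrdl1 then rose in both grafts, to group means of -0.75 ± 0.48 (SD, n = 8) in BAM and -1.18 ± 0.73 (SD, n = 8) in BAM+ASCs at 180 days. In BAM+ASCs all 8 arrays of 90 days were above every array of 30 days (1.94 ± 0.33, limma, adjusted p = 2.05e-06). The rise from 30 to 90 days in BAM was 0.86 without replicate 5 of 90 days and 0.93 without replicate 8, and was then not called. With the smooth muscle score in the fit the changes were 1.04 ± 0.33 in BAM+ASCs (limma, adjusted p = 0.0107) and 0.61 ± 0.29 in BAM (limma, adjusted p = 0.0641). From 90 to 180 days Chrdl1 in BAM differed by 0.83 ± 0.33 and was called only without replicate 5 of 90 days (1.07). The genes most like Chrdl1 within groups were Ppp1r1a (r = 0.72), Ppm1l (r = 0.70) and Slain2 (r = 0.70).

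Grem1, an antagonist of Bmp2, Bmp4 and Bmp7, was at 0.26 to 3.21 in BAM and 0.94 to 2.08 in BAM+ASCs at 7 days, with medians of 0.98 and 1.24. From the earliest to the latest day the graft differences were 0.13, 0.64, -0.17 and 0.039, each with an SE of 0.59, and the 95% interval at 7 days ran from -1.05 to 1.31. The dimmer Grem1 probe gave 0.15, 0.72, 0.86 and 0.71, each with an SE of 0.52 and none called. The probes thus differed most at 90 and 180 days. Group medians of the brighter probe were lower at the late days. In BAM+ASCs the median was 0.93 at 30 days and -0.26 at 90 days, and the change of the means was -1.92 ± 0.59 (limma, adjusted p = 0.00587). BAM+ASCs replicate 3 of 90 days, at -5.95 against -0.89 to 2.10 in the other 7 arrays of its group, moved this value: without it the change was -1.16 (limma, adjusted p = 0.0413). The call was also lost without replicate 2 (-1.74), 7 (-1.72) or 8 (-1.78) of the 30-day group or replicate 8 of the 90-day group (-1.88), and the dimmer Grem1 probe gave -0.89 ± 0.52 (limma, adjusted p = 0.153). The genes most like Grem1 within groups were Bst1 (r = 0.70), the matrix proteoglycan Vcan (r = 0.70) and the chemokine Cxcl1 (r = 0.68).

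Nog, an antagonist that binds Bmp ligands with high affinity, was well above background on all 8 arrays of each group at 7 and 30 days and on none at 90 and 180 days. At 7 days it lay between -6.04 and -3.80 in BAM and between -5.97 and -5.07 in BAM+ASCs, a difference of -0.13 ± 0.35. At 30 days the difference was 0.52 ± 0.35 (limma, adjusted p = 0.356). The fit called Nog lower in BAM+ASCs at 90 days (-1.28 ± 0.35), but no array of either group was well above background, so no fold is given. The difference was -0.05 after normexp background correction. It also lost its call without BAM+ASCs replicate 8 (-1.21) and without BAM replicate 1 (-1.04) or 8 (-0.96). In BAM+ASCs the fit called Nog lower at 90 than at 30 days (limma, adjusted p = 0.00184). No 90-day array was well above background, so no fold is given for this either. The fitted change was -0.92 without replicate 1 of 30 days, an array at -2.00 (limma, adjusted p = 0.0105). After normexp background correction the change was -0.07 (limma, adjusted p = 0.821).

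**Figure D3:**
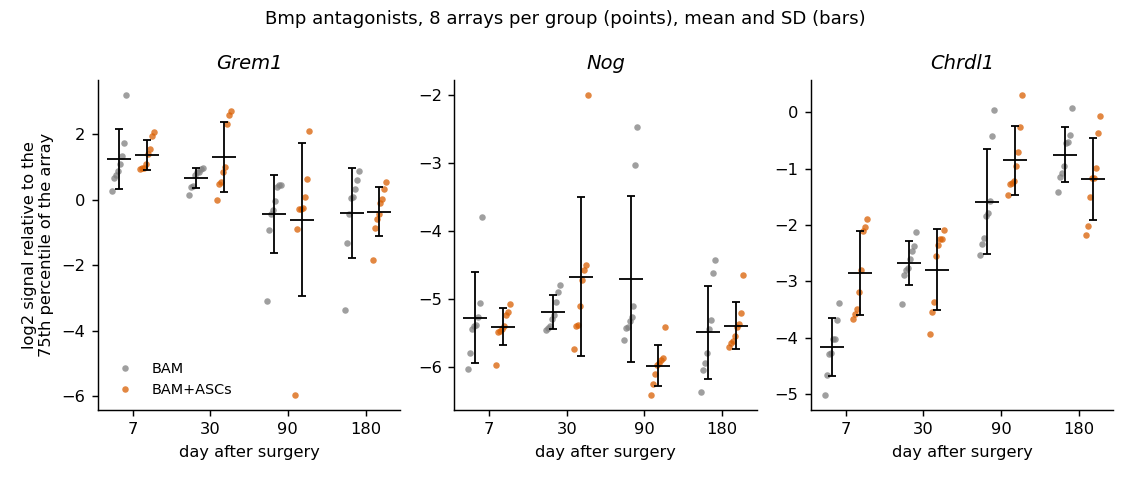
Levels of the 3 antagonists by day after surgery (x axis) as log2 signal relative to the 75th percentile of the array (y axis, a separate range for each gene). Points are single arrays, 8 per group, BAM in grey and BAM+ASCs in orange, and black bars give the mean ± SD. Chrdl1 starts from group means of -4.17 (BAM) and -2.85 (BAM+ASCs) at 7 days. Grem1 has 1 array at -5.95 at 90 days, and no Nog point of 90 or 180 days is well above background.

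From 7 to 30 days Id1 and Id3 rose in both grafts, while Id2 stayed within a narrower range over the 4 days. At 90 and 180 days Id3 alone of the 3 Id genes was called between grafts, in opposite directions.

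The promoters of the 3 Id genes are shown because Id3 alone of them was called between grafts at 90 and 180 days. Each line gives the 250 bases before the annotated transcription start, on the strand of the gene, from RefSeq on build GRCr8. Capitals mark matches on either strand to the TATA box (TATAAA), the GC box (GGGCGG) and the CCAAT box (CCAAT). Id1 lies on the plus strand at chr3:161671314-161671563, Id2 on the minus strand at chr6:47470996-47471245 and Id3 on the plus strand at chr5:153656041-153656290.
Id1: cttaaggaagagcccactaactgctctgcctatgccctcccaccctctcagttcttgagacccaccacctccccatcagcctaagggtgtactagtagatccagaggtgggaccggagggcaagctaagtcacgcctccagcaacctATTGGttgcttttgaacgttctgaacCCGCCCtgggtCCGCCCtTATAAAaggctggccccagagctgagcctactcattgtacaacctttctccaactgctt
Id2: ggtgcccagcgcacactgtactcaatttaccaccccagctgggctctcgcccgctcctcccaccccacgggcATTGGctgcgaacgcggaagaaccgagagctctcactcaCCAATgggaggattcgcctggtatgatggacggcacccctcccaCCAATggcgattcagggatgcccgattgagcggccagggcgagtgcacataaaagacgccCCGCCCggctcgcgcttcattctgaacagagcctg
Id3: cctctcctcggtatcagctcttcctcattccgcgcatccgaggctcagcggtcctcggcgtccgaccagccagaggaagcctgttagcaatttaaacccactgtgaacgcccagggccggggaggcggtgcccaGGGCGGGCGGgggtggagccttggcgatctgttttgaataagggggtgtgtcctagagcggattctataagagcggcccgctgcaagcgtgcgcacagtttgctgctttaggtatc
A TATA box match was in the Id1 window and in neither of the others. CCAAT box matches numbered 1 in Id1, 3 in Id2 and 0 in Id3, and GC box matches numbered 2, 1 and 2, the pair in Id3 overlapping. Of 33469 rat promoter windows of the same length, 12.9% held TATAAA, 30.5% GGGCGG and 34.0% CCAAT on either strand. The GC-rich Smad element GGCGCC, held by 8.69% of the windows, and the Smad-binding sequence CAGACA, held by 17.2%, had no match in any of these 3 windows. Of the 10 members, 8 had a promoter window, with GGCGCC in those of Grem1 and Nog and CAGACA in that of Bmp4. Bases outside these windows were not searched, so the counts cannot tell whether such sites lie elsewhere.

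Id1 lay between 0.14 and 1.21 in BAM at 7 days, with a median of 0.95, and between 0.76 and 1.73 in BAM+ASCs, with a median of 1.44. The difference was 0.53 ± 0.22 with a 95% interval of 0.09 to 0.97 and was not called (limma, adjusted p = 0.0839). The later differences were 0.52, 0.45 and 0.088 at 30, 90 and 180 days, none called. From 7 to 30 days Id1 rose in both grafts, by 2.03-fold in BAM and 2.02-fold in BAM+ASCs, and 7 of 8 BAM arrays and 8 of 8 BAM+ASCs arrays of 30 days were above every 7-day array of their graft. With the urothelial score in the fit, the rise was 0.68 ± 0.18 in BAM+ASCs (limma, adjusted p = 0.00460). Replicate 5 of BAM at 90 days, the array with the low urothelial score, had an Id1 level of 0.26 against 1.78 to 2.83 in the other 7 arrays.

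Id2 lay between 0.65 and 1.44 in BAM+ASCs and between 0.91 and 1.61 in BAM at 7 days. The largest graft difference of the 4 days was at 30 days, where 6 of 8 BAM+ASCs arrays were below every BAM array. It was -0.48 ± 0.12, or 0.717-fold, under the fold threshold and just past that for p (limma, adjusted p = 0.0104). The group means of Id2 ran from 1.15 to 1.83 over the 8 groups, and no neighbouring pair in their order was told apart. From 7 to 30 days in BAM, Id2 rose by 0.51 ± 0.12 (limma, adjusted p = 0.00133) with 7 of 8 arrays above every 7-day array, which is a fold of 1.43 and under the fold threshold.

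Id3 lay between -1.50 and -0.41 in BAM at 90 days, with a median of -0.96, and between -3.04 and -2.25 in BAM+ASCs, with a median of -2.62. All 8 BAM+ASCs arrays were below every BAM array, and the difference was -1.63 ± 0.18, or 0.322-fold (limma, adjusted p = 1.75e-10). Of the 10 members, 3 were called at 90 days (Bmp2 higher, Nog and Id3 lower), where 12.5% of all probes were called, 3.88% higher and 8.60% lower. At 180 days the order was turned. Id3 lay between -3.29 and -2.26 in BAM, with a median of -2.68, and between -1.16 and -0.41 in BAM+ASCs, with a median of -0.94. All 8 BAM+ASCs arrays were above every BAM array, and the difference was 1.83 ± 0.18, or 3.57-fold (limma, adjusted p = 9.32e-12). Id3 was the 1 member of 10 called at 180 days, where 2.44% of all probes were called and 2.40% called higher.

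The change of the Id3 graft difference from 90 to 180 days was 3.47 ± 0.26 (limma, adjusted p = 4.74e-17) and that from 30 to 90 days was -1.76 ± 0.26 (limma, adjusted p = 8.44e-07). For the first of these contrasts 9.79% of all probes were called and 5.95% called higher, and for the second 9.99% were called and 6.67% called lower. At 7 and 30 days the grafts differed by 0.085 ± 0.18 and 0.12 ± 0.18. Followed over time, Id3 rose from 7 to 30 days by 1.35 in BAM and 1.38 in BAM+ASCs. In BAM it was then higher at 90 days (0.74 ± 0.18) and fell by 1.74 to 180 days, and in BAM+ASCs it fell by 1.02 to 90 days and rose by 1.73 to 180 days. Its call in either graft difference was kept without any 1 of the 16 arrays, and without the 2 arrays of 90 days that stood apart the difference at 90 days was -1.67 ± 0.20. In the order of the group means, BAM+ASCs at 180 days and BAM at 90 days were a pair that did not differ by the test (0.096, limma, adjusted p = 0.727), and BAM+ASCs at 90 days and BAM at 180 days were another (0.10, limma, adjusted p = 0.783).

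Id3 was not alone in this pattern, which 423 of 30367 probes (1.39%) shared, called lower in BAM+ASCs at 90 days and higher at 180 days, while 1 probe was called the other way at both. The comparisons at 90 and 180 days have no arrays in common. Each of the 4 groups was on its own slide, and the median local background ranged from 321 to 366 on the BAM arrays and from 99 to 120 on the BAM+ASCs arrays at 90 days. At 180 days it was 138 to 171 in BAM and 119 to 152 in BAM+ASCs. The groups are those of the labels, and graft, slide and an exchange of groups cannot be told apart here. Among the cell type scores, that of fibroblasts was higher in BAM+ASCs at 90 days (0.39, exact permutation adjusted p = 0.0210). Col1a1, Col1a2 and Dcn were called higher there, and Pdgfra (-0.15), Lum (-0.04) and Thy1 (-0.008) were not called. Without the 2 arrays that stood apart the score difference was 0.42 (exact permutation adjusted p = 0.0653 over 7 scores). Scores of endothelium (0.45, exact permutation adjusted p = 0.0174) and adipocytes (1.16, exact permutation adjusted p = 0.0367) were higher at 180 days. Of the 6 endothelial genes 0 were called there. No adipocyte gene was called, with Adipoq at 3.66, Cidec at 0.67, Fabp4 at 0.34 and Lep at -0.02. The part of these cell types in the Id3 differences was not tested. The Id3 probe was well above background on 7 of 8 BAM arrays and 8 of 8 BAM+ASCs arrays at 90 days and on 6 of 8 and 8 of 8 at 180 days. Within groups Id3 was weakly tied to any gene, its nearest being Rpl17l5 (r = 0.56), Ctcf (r = 0.55) and Zfp36 (r = 0.53), and its r with the urothelial score was -0.13.

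**Figure D4:**
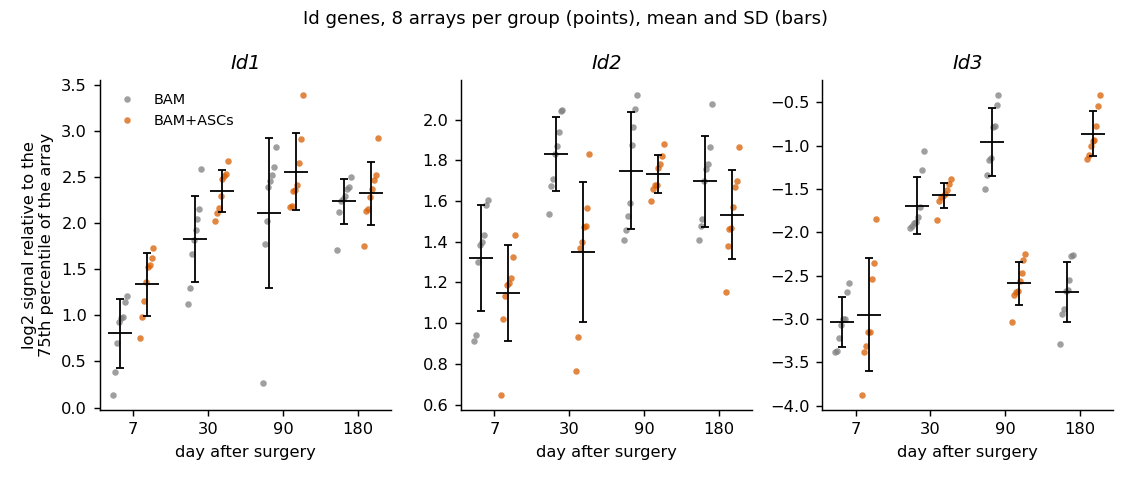
Levels of Id1, Id2 and Id3 by day after surgery (x axis) as log2 signal relative to the 75th percentile of the array (y axis, a separate range for each gene). Points are single arrays, 8 per group, BAM in grey and BAM+ASCs in orange, and black bars give the mean ± SD, and for Id3 the groups are apart at 90 days (-0.96 in BAM and -2.59 in BAM+ASCs) and apart the other way at 180 days (-2.69 and -0.86), which Id1 and Id2 do not show.

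At 30 days 0 of 10 members were called between the grafts (limma), where 1.67% of all probes were called. An unadjusted p below 0.05 (limma) was found for 4 of the 10, namely Bmp6, Bmp7, Id1 and Id2, beside 7834 of all 30367 probes. A 2-way analysis of variance without moderation also called 0. The plot of graft differences shows the 4 days side by side.

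**Figure D5:**
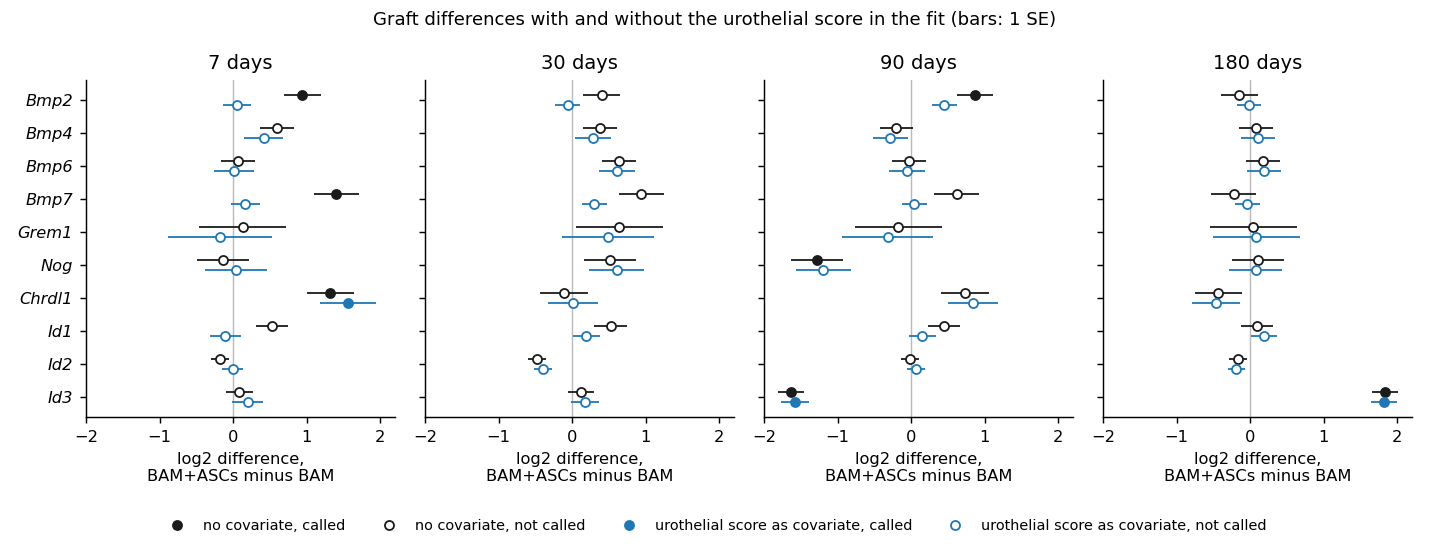
Difference between BAM+ASCs and BAM (x axis, log2 scale, bars of 1 SE) for the 10 members (y axis) at 7, 30, 90 and 180 days. Black symbols are the fit without a covariate and blue symbols the fit with the urothelial score, filled where the gene was called, and at 7 days the blue Bmp2 and Bmp7 symbols lie near 0 (0.050 and 0.16) and that of Chrdl1 does not (1.56), and Id3 is at -1.63 and 1.83 at 90 and 180 days.

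Other genes of the Bmp pathway were described from a list of 52, of which 46 were on the array: ligands, receptors, Smads, modulators and targets. At 7 days 6 of 46 were higher and 3 lower in BAM+ASCs, against 2.11% of all probes called higher and 5.62% called lower. The median difference was -0.13 over the list and -0.16 over all probes. Higher were the ligands Bmp3 (1.28 ± 0.34) and Bmp5 (1.19 ± 0.29), the antagonist Sostdc1 (1.08 ± 0.31) and the transcriptional targets Msx2 (2.40 ± 0.47), Hes1 (1.25 ± 0.23) and Id4 (0.94 ± 0.23). Lower were the ligand Bmp8a (-1.13 ± 0.21) and the target Hey1 (-0.81 ± 0.20), both below every BAM array in 8 of 8 BAM+ASCs arrays, and the co-receptor Hjv. Hjv was well above background on 7 of 8 BAM arrays and not on any BAM+ASCs array, so no fold is given. At 30 days 0 of 46 were called (limma), against 1.67% of all probes. Of the 46, 10 had an unadjusted p below 0.05, beside 7834 of all 30367 probes. At 90 days 1 of 46 was called higher and 1 lower, against 3.88% and 8.60% of all probes. The type II receptor Bmpr2 was higher in BAM+ASCs, above every BAM array in 8 of 8 (0.92 ± 0.13). The gene called lower was Hjv, which was well above background on 1 of 8 BAM arrays and 0 of 8 BAM+ASCs arrays, so no fold is given. At 180 days 2 of 46 were called, against 2.40% of all probes called higher. Gdf7 (0.62 ± 0.14) and Hey1 (0.78 ± 0.20) were higher, Hey1 being well above background on 5 of 8 BAM+ASCs and 2 of 8 BAM arrays.

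Over time the counts of the pathway list were read against the share of all probes called in each direction. From 7 to 30 days in BAM 8 of 46 were called higher and 7 lower, against 4.44% and 4.21% of all probes, with Msx2 (2.98 ± 0.47) and Gdf10 (1.97 ± 0.40) highest and the antagonist Chrdl2 (-2.02 ± 0.51) and the receptor Bmpr1b (-1.52 ± 0.40) lowest. In BAM+ASCs 2 were called higher, Bmp8a (0.98 ± 0.21) and Hes1 (0.92 ± 0.23), and 1 lower, the osteoblast factor Runx2 (-0.98 ± 0.24), against 6.67% and 1.40% of all probes. From 30 to 90 days in BAM 16 of 46 were called higher and 5 lower, against 35.2% and 9.49% of all probes, so the counts were close to those of all probes. Of the 16, Gdf2, Bmp10, Smad9 and Bmp8a were not well above background on any BAM array of 90 days, and Hjv, Sost and Bmpr1b on 1 of 8, so no rise was measured for these 7. Those not among the highest or lowest were named after their values were seen. The lowest values were those of Runx2 (-1.84 ± 0.24) and the activin antagonist Fst (-1.61 ± 0.28). In BAM+ASCs 8 of 46 were called higher and 6 lower, against 17.8% and 10.3% of all probes, with Bmp5 (1.27 ± 0.29) and Bmpr2 (1.14 ± 0.13) highest and Chrdl2 (-2.03 ± 0.51, well above background on 1 of 8 arrays of 90 days) and Runx2 (-1.68 ± 0.24) lowest. From 90 to 180 days 3 of 46 were called higher and 0 lower in each graft, against 5.21% of all probes called higher in BAM and 3.52% in BAM+ASCs. The highest were Bmpr2 (1.35 ± 0.13) and the receptor Acvr2b (0.73 ± 0.13) in BAM and Hey1 (1.05 ± 0.20) and Bmp8a (0.90 ± 0.21) in BAM+ASCs. At 90 days Hey1 was well above background on 2 of 8 BAM+ASCs arrays and Bmp8a on 4 of 8, so both rises start near background.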

How the data were processed

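Total RNA of reconstructed bladder wall was hybridised by the authors to 1-colour Agilent arrays, which were read with Agilent Feature Extraction 12.0.1.1 per the labels. The processed signal they deposited is an intensity on a linear scale, already corrected for background within each array. Here it was taken to log2, the 75th percentile of the 58717 gene spots of the array was subtracted, and good spots of the same probe were averaged without those the scanner software marked as outliers. A probe counted as well above background when this held for a share of 0.5 or more of its spots. RefSeq accessions of 22372 probes were matched without version to the GRCr8 table, which named 18750. The value table that the authors deposited beside the arrays holds intensities on a linear scale and was used as an alternative only. In 61 of 64 columns the median difference of its log2 values from those of the processed signal was below 0.01. The other columns were BAM+ASCs replicates 2, 3 and 4 of 7 days, with median differences of -3.30, -3.31 and -3.31. The column of BAM replicate 1 of 180 days had no value for 24873 gene spots. The number of arrays limits the precision, and p-values cover the spread between the arrays of a group.

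Samples were grouped by the graft and day in their titles. The labels number the groups in another order than the study's text, and graft and day were followed. The fit was a model of the 8 group means (limma 3.58.1, R 4.3.3) on the full set of 64 arrays, with 4 graft contrasts, 6 contrasts between neighbouring days and 3 changes of the graft difference, and Benjamini-Hochberg adjustment over 30367 probes. The study's methods name a 2-way analysis of variance, which was run as an alternative without moderation. Exact permutation tests and figures used Python 3.11.15, numpy 2.4.6, scipy 1.17.1, pandas 2.3.3 and matplotlib 3.10.9. The fit was tested on simulated data.

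The members, the gene lists and the tests were chosen with earlier results of these data known. Named were all members by their brightest probe, pathway genes called between grafts, at most 2 highest and 2 lowest called pathway genes between days, and up to 3 of the genes most like a member, with 1 result not reported here. Of the score lists, 13 of 14 urothelial genes (Upk1a, Upk1b, Upk2, Upk3a, Krt5, Krt19, Krt20, Tp63, Foxa1, Elf3, Cdh1, Epcam and Cldn4) and 10 of 10 smooth muscle genes were on the array.

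Other settings tried were quantile normalization, scaling to detected spots, normexp background correction (offset 50), the deposited value table, removal of dim probes, separate fits, a replicate block, no moderation, outlier spots kept, all probes of a gene averaged, the urothelial or smooth muscle score as a covariate, and each array left out. Leaving out both 90-day arrays that stood apart, also with the urothelial score as a covariate, was chosen after seeing the data. Protein sequences were not used here.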

Additional observations from a re-analysis of the deposited data

Results flagged for a closer look

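Of 80 sets of 8 arrays (10 members in 8 groups), 12 had 1 array far from the other 7 by Dixon's criterion, and chance gives about 1 in 20. Among these 12, 6 came from 2 arrays of 90 days. BAM replicate 5 was the lowest of its group for Bmp2 (-1.90 against 0.01 to 1.11), Grem1 (-3.07 against -0.92 to 0.47) and Id1 (0.26 against 1.78 to 2.83). BAM+ASCs replicate 3 was the highest for Bmp2 (2.12 against 0.48 to 1.24) and the lowest for Bmp4 (-0.71 against 0.18 to 0.66) and Grem1 (-5.95 against -0.89 to 2.10). BAM+ASCs replicate 3 at 7 days was the lowest for Bmp4 (-1.17), Bmp7 (-0.39) and Nog (-5.97). The others were BAM replicate 7 at 7 days, highest for Nog (-3.80), BAM+ASCs replicate 1 at 30 days, highest for Nog (-2.00 against -5.73 to -4.50), and BAM replicate 2 at 180 days, lowest for Id1 (1.71).

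For Id3 the graft difference changed by -1.76 from 30 to 90 days and by 3.47 from 90 to 180 days, where 9.99% and 9.79% of all probes were called for such a change (limma interaction contrasts). For Nog the fitted change from 30 to 90 days was -1.79. No array of 90 days was well above background for Nog, so this is not a measured change.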

How the results depend on the processing

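The Id3 differences between grafts at 90 and 180 days kept their direction and call in all alternatives run, and the cause of the other changes was not tested. Called members at 7 days went from 3 to 1 with normexp, with the urothelial score or with separate fits, and at 90 days from 3 to 1 with the urothelial score or separate fits. In BAM the count from 7 to 30 days went from 5 to 3 with either score, from 30 to 90 days from 5 to 2 with detected-spot scaling and 3 with the smooth muscle score, and from 90 to 180 days from 2 to 1 with the urothelial score or a separate fit. In BAM+ASCs it went from 2 to 4 (7 to 30 days, separate fit) and from 5 to 2 (30 to 90 days, smooth muscle score). Without single arrays the counts were 1 to 4 at 7 days, 0 at 30, 1 to 3 at 90 and 1 at 180 days between grafts, 4 to 6, 4 to 5 and 2 to 3 in BAM, and 2 to 3, 4 to 5 and 1 in BAM+ASCs. The median r of Bmp2 with the urothelial score was 0.76 with quantile normalization, 0.78 with normexp, and 0.56 without the 2 farthest arrays per group. The replicate numbers did not pair the samples (9 of 32 same-numbered pairs had r over 0.1), and with the replicate block the counts between grafts were 3, 0, 3 and 1, as without it, and from 7 to 30 days in BAM+ASCs 3 in place of 2.

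The direction turned only for differences that were not called, except Bmp7 in BAM from 7 to 30 days with the urothelial score (-0.037). At 7 days these were Bmp6 (-0.29) and Id3 (-0.031) with normexp, Nog with quantile normalization (0.15), series matrix values (0.14) and the urothelial score (0.040), and Grem1 (-0.18) and Id1 (-0.11) with the urothelial score. At 30 days they were Chrdl1 with detected-spot scaling (0.017) and the urothelial score (0.010) and Bmp2 with the urothelial score (-0.061). At 90 days they were Bmp6 (0.19) and Grem1 (0.079) with normexp, Bmp6 (0.47) and Id2 (0.026) with quantile normalization, Bmp4 (0.058), Bmp6 (0.23), Grem1 (0.084) and Id2 (0.24) with detected-spot scaling, Id2 with the urothelial score (0.061), Grem1 with the smooth muscle score (0.060) or all probes averaged (0.35), and Bmp6 (0.083), Grem1 (0.21) and Id2 (0.034) without the 2 arrays that stood apart. With both arrays left out and the urothelial score in the fit they were Bmp6 (0.049), Grem1 (0.15), Id1 (-0.021) and Id2 (0.067). At 180 days they were Grem1 (-0.049) and Nog (-0.099) with normexp, Grem1 (-0.022) and Nog (-0.20) with quantile normalization, and Grem1 with the smooth muscle score (-0.060). Dim signals limit Nog and Bmp6 at 90 and 180 days.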
